A study of Mus musculus with 4 samples.

Results

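The angiopoietin and Tie receptor genes were followed in B16 melanoma tumours, and the brightest probe of Angpt2 read 1.57-fold lower in hosts lacking VAP-1, a difference that did not pass the threshold across the array. Of the other measured members, only Angptl4 gave a signal above background. The family was taken as 6 genes: the ligands Angpt1 and Angpt2, the receptors Tek and Tie1, and the angiopoietin-like genes Angptl2 and Angptl4. Every probe whose platform annotation carries one of these symbols was used, which gave 10 of 46632 probes: 3 for Angpt1, 2 for Angpt2, 1 each for Tek and Tie1, and 3 for Angptl4. No probe is named for Angptl2 in the annotation used, so that gene was not analysed here.

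The angiopoietins are secreted ligands of the receptor tyrosine kinase Tie2, which Tek encodes and which sits mainly on endothelium. Angpt1, made largely by the cells around vessels, activates Tie2 and steadies the vessel wall, while Angpt2, made by endothelium and stored beside von Willebrand factor, often opposes that signal and is a known mark of remodelling tumour vessels. Tie1 is a related receptor that modulates Tie2. Angptl4 shares the ligand fold but acts on other targets: it inhibits lipoprotein lipase and is induced by fatty acids and by low oxygen.

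The tumours were B16-F10-luc-G5 melanomas, a mouse B16 derivative that expresses luciferase, grown under the abdominal skin for 10 days in 2 wild-type mice (replicates 2 and 3) and in 2 VAP-1 -/- mice (replicates 1 and 2), with 1 Illumina bead array a tumour. All 4 hosts received the same cells with no treatment named, so the comparison asks how tumour RNA differs when the host lacks VAP-1, an amine oxidase of vessels that is encoded by Aoc3. Since every host was given that line, the deletion affects the host part of a tumour. The labels name neither the strain and age of the mice nor the way the null allele was built.

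Values are log2 of the authors' processed probe intensity, and differences are knockout minus wild type. Median unnormalized intensity lay between 55.3 and 68.3 on the 4 arrays, and the number of arrays, 4, sets the precision reached. As a guide to signal above background, a line was set at 6.49, the 95th percentile of 1307 probes for olfactory and vomeronasal receptor genes, and 29.7% of all probes lay above it. All 12 melanocyte markers were above the line, with a summed intensity of 97774 to 101059 in wild type and 108586 to 113258 in the knockout. Of these markers, 6 had a higher and 6 a lower mean in the knockout, with a median difference of 0.02. Aoc3 read 7.96 and 7.09 on the wild-type arrays and 7.21 and 7.07 on the knockout arrays at its brighter probe, and the groups overlapped. Whether that probe lies in the deleted part is not stated in the labels. Aoc3 therefore checks no genotype here, and the group names follow the labels.

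Angpt2, the Tie2 ligand of remodelling endothelium, was the brightest member. Its probe ILMN_1234487 read 10.30 in wild-type replicate 2 and 10.06 in wild-type replicate 3, against 9.49 in knockout replicate 1 and 9.56 in knockout replicate 2. Both knockout arrays lay below both wild-type arrays, with a gap of 0.49 between the groups. The means were 10.18 ± 0.17 and 9.53 ± 0.05 (SD, n = 2 each). The difference of -0.65 ± 0.12 (SE, 95% interval -0.96 to -0.34) left the knockout at 63.6% of the wild-type signal. The unadjusted limma p was 0.00322, and the limma p adjusted over all 46632 probes was 0.137, so the difference was not called. In these whole tumours, fewer cells that make Angpt2 and less Angpt2 RNA per cell cannot be told apart.

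The second Angpt2 probe did not register the gene. It read 5.86 and 5.91 in wild type and 5.98 and 5.86 in the knockout, under the background line on all 4 arrays, with a difference of 0.03 ± 0.10 (SE). The Angpt2 result therefore rests on 1 probe. In the RefSeq gene table Angpt2 lies inside Mcph1, a gene of chromosome condensation. The 3 Mcph1 probes differed by -0.07, 0.10 and 0.15, and the 1 of them above the line read 8.11 and 7.85 against 7.92 and 7.89.

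The Angpt2 difference depended on how arrays were scaled to one another. Before normalization its intensity was 964 and 1029 in wild type and 695 and 1017 in the knockout, so knockout replicate 2 lay level with wild type, on the array with the highest median intensity. Scaled by array medians, the log2 values were 9.90 and 10.19 against 9.39 and 9.87, a difference of -0.41 (limma adjusted p = 0.637). The groups still did not overlap, but wild-type replicate 2 and knockout replicate 2 nearly met. Median scaling moved the median of all probes above the line to 0.19, from -0.03 in the processed values. Relative to that median the Angpt2 difference was -0.62 in the processed values and -0.61 under median scaling. It was also -0.61 under 75th percentile scaling, which is no separate check. Both scalings divide the same intensities by 1 factor an array, so values relative to other probes must be equal. Without wild-type replicate 3 the probe passed the threshold, at -0.77 (limma adjusted p = 0.0232), and without wild-type replicate 2 it did not, at -0.53 (limma adjusted p = 0.0567). Each of these fits has 1 wild-type array, assumed to vary like the close knockout pair, on 1 residual degree of freedom. The fit without replicate 3 called 2400 probes against 0 with all arrays.

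**Figure D1:**
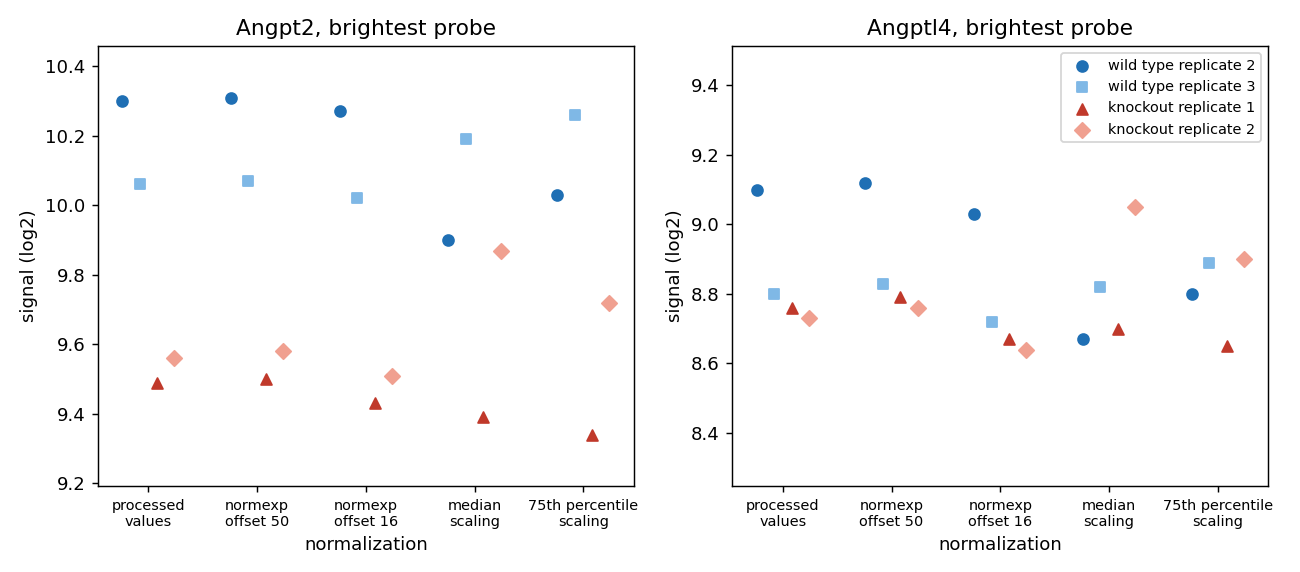
Log2 signal of the brightest Angpt2 probe (left) and Angptl4 probe (right) on each of the 4 arrays under 5 normalizations, 1 point an array, with both vertical axes spanning the same range. The knockout points for Angpt2 lie below the wild-type points under each normalization, while those for Angptl4 overlap under median and 75th percentile scaling.

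The activating ligand and both receptors gave no signal above background. The brightest of the 3 Angpt1 probes read 5.74 and 5.90 in wild type and 5.88 and 5.68 in the knockout, and the other probes did not exceed 5.91 on any array. Tek, the Tie2 receptor gene, read 6.01 on both wild-type arrays and 6.08 and 6.16 on the knockout arrays. Tie1, the co-receptor gene, read 5.94 and 5.92 against 5.94 and 5.97. None of these 5 probes reached the line of 6.49 on any array, so no fold is given for these genes. Their differences were -0.04 ± 0.12 for Angpt1 (SE, 95% interval -0.35 to 0.28), 0.11 ± 0.09 for Tek (-0.13 to 0.35) and 0.03 ± 0.09 for Tie1 (-0.20 to 0.26). Tek and Tie1 were read by a single probe each, and a change in either gene was not detectable at this signal.

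Endothelial RNA itself was measured on the same arrays. Of 19 endothelial markers with a named probe, 16 lay above the line, and Sox17, Erg and Clec14a did not. The vessel adhesion gene Pecam1 read 9.67 and 9.22 in wild type and 9.01 and 9.15 in the knockout. Tek and Tie1 were therefore under the line in tumours where most endothelial markers were over it.

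**Figure D2:**
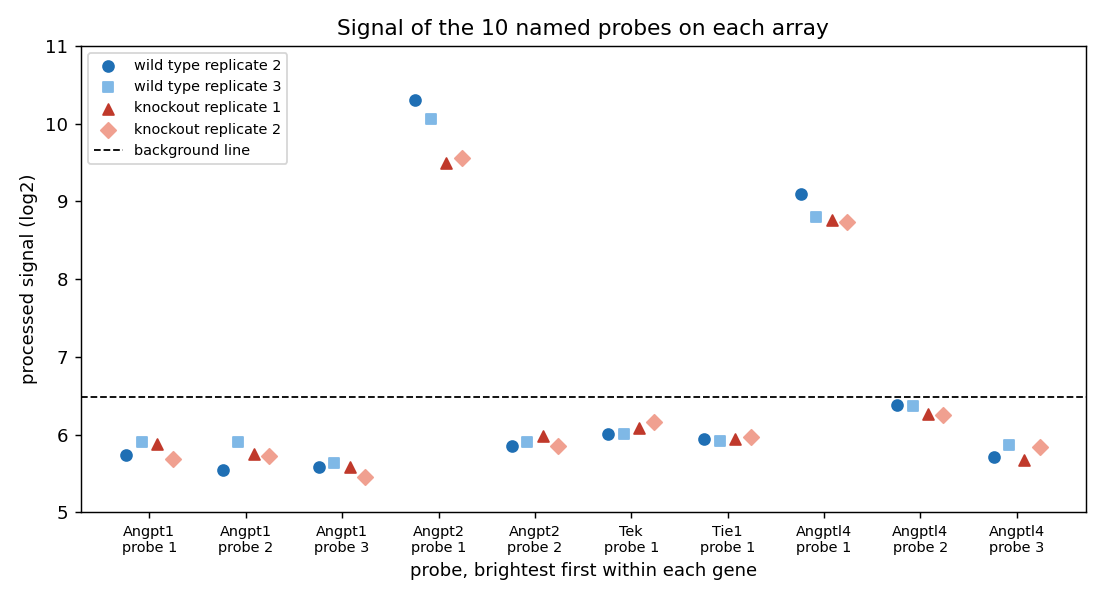
Processed log2 signal of the 10 named probes (horizontal axis, brightest first within each gene) on the 4 arrays, 1 point an array, with the background line of 6.49 dashed. Angpt2 probe 1 and Angptl4 probe 1 lie above the line, and the 8 other probes lie below it on every array.

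Angptl4, the lipoprotein lipase inhibitor, was the other member with signal. Its probe ILMN_2759365 read 9.10 and 8.80 in wild type and 8.76 and 8.73 in the knockout, and the groups were 0.05 apart. The difference of -0.21 ± 0.13 (SE, 95% interval -0.54 to 0.13) was not called (limma adjusted p = 0.617), and under median scaling it was 0.13, with overlapping groups. Relative to the median of all probes above the line it was -0.18 in the processed values. It was -0.07 under median and 75th percentile scaling, which must give the same relative value. The second probe, just under the line, read 6.38 and 6.37 against 6.27 and 6.25 and differed by -0.12 ± 0.09. The third lay near the floor of the table and differed by -0.03 ± 0.12.

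Over the 10 probes, 0 were called at a limma adjusted p under 0.05, as were 0% of all probes. At an unadjusted p under 0.05 1 of 10 was lower in the knockout (the bright Angpt2 probe) and 0 higher, where 5.63% of all probes were lower and 7.03% higher. Groups did not overlap for 4 probes with the knockout lower and 2 with it higher, against 22.6% and 21.5% of all probes. Among 8501 named genes above the line, 17.4% were lower and 15.8% higher at an unadjusted p under 0.05. Angpt2 ranked 583 from the lowest difference, and 6.85% of these genes had a lower difference.

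Within an array, the difference between a pair of probes does not depend on a scale factor for the array. Angpt2 minus the mean of the 16 endothelial markers was 1.53 and 1.57 in wild type and 1.21 and 1.02 in the knockout, a difference of -0.44. Angpt2 minus Angptl4 was 1.20 and 1.25 against 0.73 and 0.83, a difference of -0.45 (a contrast added after the values were seen). In both contrasts the knockout arrays lay below the wild-type arrays. The exact two-sided permutation p was 0.333 for each, the smallest that 2 arrays against 2 allow. The mean of the markers differed by -0.22 with Vwf and by -0.34 without it, and the contrast was -0.31 without it. Of the 16 markers, 3 had a lower difference than Angpt2: Mmrn2 (-0.82), Emcn (-0.73) and Cldn5 (-0.72), chosen after their values were seen. Angpt2 minus Angpt1 (-0.62) and Angpt2 minus Tek (-0.76) had the same p, but with a partner under the line they show little beyond Angpt2 itself. Tek minus Tie1 was 0.08 and 0.09 against 0.14 and 0.19, from probes that are both under the line.

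Vessel markers beside Angpt2 went both ways. Among the 16 endothelial markers above the line, 12 had a lower and 4 a higher mean in the knockout, with a median difference of -0.32 against -0.04 over all 8501 named genes above the line. That median was -0.05 under median scaling, -0.08 without wild-type replicate 2 and -0.54 without wild-type replicate 3. Median scaling moved the median of all probes above the line to 0.19 from -0.03. List medians given under that scaling, here and below, include this shift. At an unadjusted p under 0.05 4 were lower and 1 higher (17.4% and 15.8% of all named genes above the line), and 0 passed after adjustment. The tight junction gene Cldn5 differed by -0.72 ± 0.14 (SE) and the VEGF receptor gene Kdr by -0.60 ± 0.13, with its second probe under the line. Vwf, which encodes the von Willebrand factor stored with Angpt2, went the other way, with 10.07 and 8.88 in wild type and 11.09 and 11.08 in the knockout at the 1 of its 2 probes above the line. Summed endothelial intensity overlapped between the groups, at 9551 and 8430 against 8736 and 9565. Without Vwf, a check added after the values were seen, it was 8474 and 7958 against 6562 and 7400, lower on both knockout arrays. The part of endothelial content in the Angpt2 difference was not tested.

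Of 15 pericyte and smooth muscle markers, whose cells are a source of Angpt1, 9 were above the line. Their median was -0.47 (-0.18 under median scaling, -0.20 without wild-type replicate 3). Of the 9, 7 had a lower mean and 2 a higher one, Mcam (0.28 ± 0.18, SE) and Notch3 (0.09 ± 0.13). Pdgfrb differed by -0.03 ± 0.10. At an unadjusted p under 0.05, 4 were lower and 0 higher (17.4% and 15.8% of all named genes above the line). Cspg4, the pericyte proteoglycan gene, read 7.58 and 7.60 against 6.97 and 7.01. Kcnj8, a potassium channel gene of pericytes, read 7.81 and 6.74 against 5.93 and 6.30, and it counts as above the line through the wild-type arrays alone. The same holds for Cox4i2, another of the 4 lower markers, with 6.60 and 6.87 against 6.43 and 6.37. The smooth muscle actin gene Acta2 differed by -0.73 ± 0.16 (SE) at the brightest of its 5 probes. The other probe above the line differed by -0.28 ± 0.13, and those under it by -0.11, -0.13 and 0.17. The summed intensity of all 15 was 5811 and 5226 in wild type and 3766 and 4391 in the knockout. Acta2 alone gave 3543 and 3150 of that against 1770 and 2302, so the gap in the sum was largely its own. Angpt1 was under the line in all 4 of these tumours.

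Tissue other than vessel also differed between the arrays. The sums here cover only markers above the line. The 10 of 14 keratinocyte markers summed to 9571 and 9251 in wild type and 29318 and 10805 in the knockout. The 10 of 13 skeletal muscle markers summed to 4768 and 4487 against 11802 and 5971. Both sums were highest in knockout replicate 1. Knockout replicate 2 was also above both wild-type arrays in each sum, so leaving out knockout replicate 1 does not level them. The Angpt2 difference without knockout replicate 1 was -0.61. The 4 of 10 granulocyte markers above the line summed to 2024 and 3217 against 383 and 550. Most of that was S100a8, at 1282 and 2089 against 127 and 206. S100a9, Mmp9 and Camp were under the line in knockout replicate 1. The granulocyte markers left out differed by -0.28 to 0.12. The 4 of 6 red cell markers above the line summed to 70861 and 65321 against 34894 and 19883. The part of skin, muscle, blood or leukocyte content in the Angpt2 difference was not tested.

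The list of genes of angiogenic sprouts, which express Angpt2, also holds VEGF family ligands, and its members did not share one direction. Of 13 above the line, 9 had a lower and 4 a higher mean. The higher ones were the ligands Vegfa, Vegfb and Vegfc and the apelin receptor gene Aplnr (0.21 ± 0.13, SE). At an unadjusted p under 0.05, 3 were lower (Cxcr4, Kdr and Adm) and 3 higher (Vegfa, Vegfb and Vegfc). Among all named genes above the line, 17.4% were lower and 15.8% higher. The list median was -0.25, turning to 0.13 under median scaling and to 0.04 without wild-type replicate 2. Under median scaling, the median of all probes above the line was 0.19. The chemokine receptor gene Cxcr4 read 7.84 and 8.16 against 7.02 and 7.31 (-0.83 ± 0.16, SE). Esm1, a secreted proteoglycan gene of tip cells, read 8.99 and 9.13 against 7.24 and 8.82, so most of its difference of -1.03 ± 0.52 came from knockout replicate 1. The VEGF family ligands on the list differed by 0.97 ± 0.10 (Vegfb), 0.65 ± 0.17 (Vegfa), 0.31 ± 0.10 (Vegfc) and -0.33 ± 0.22 (Pgf, SE), the last pair named after their values were seen. None passed after adjustment.

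The Tie2 pathway genes showed no common shift. Of 19 ligands, partners and signalling genes above the line, 2 were lower and 2 higher at an unadjusted p under 0.05. Among all named genes above the line, the shares were 17.4% and 15.8%. The list median was -0.00 (0.15 under median scaling). Pik3r2, a regulatory subunit gene of the PI3 kinase that Tie2 activates, read 7.57 and 7.25 in wild type and 8.14 and 8.07 in the knockout (0.69 ± 0.14, SE). The adaptor gene Grb7 read 6.06 and 6.43 against 7.37 and 6.49, high on knockout replicate 1 alone. It counts as above the line through that array. Ptprb, the phosphatase that removes phosphate from Tie2, differed by -0.24 ± 0.16 (0.08 under median scaling), and Foxo1, the transcription factor that drives Angpt2 when Tie2 signalling is low, by 0.05 ± 0.10. Of 9 transcription factors upstream of Angpt2 or Tek above the line, 0 were called either way at an unadjusted p under 0.05. The shares among all named genes above the line were again 17.4% lower and 15.8% higher. The median of these factors was 0.05 (0.33 under median scaling). Angpt4, a further Tie2 ligand, was under the line with 5.81 and 5.89 against 6.14 and 6.05.

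**Figure D3:**
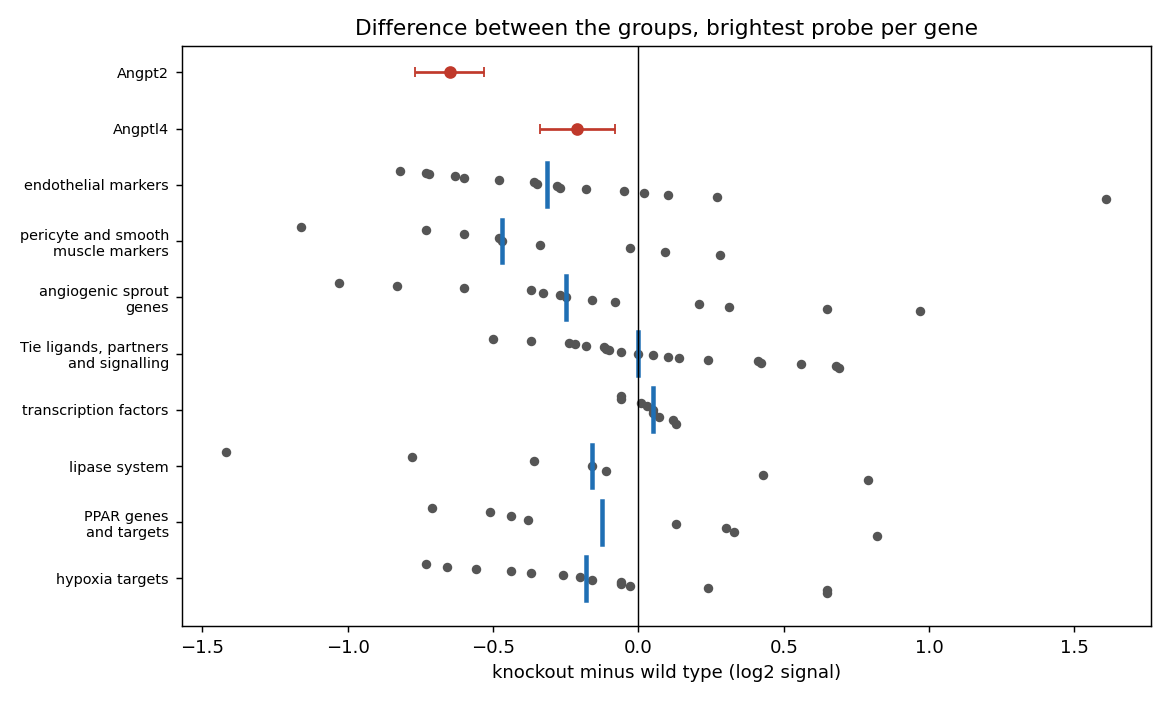
Difference in log2 signal (knockout minus wild type, horizontal axis) for the brightest probes of Angpt2 and Angptl4 (red points with SE bars) and for each gene above the background line in the 8 vessel and pathway lists named on the vertical axis (grey points, list median in blue). Angpt2 lies at -0.65 and Angptl4 at -0.21, and each of the lists drawn has genes on both sides of 0.

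In the lipase system, 7 genes were above the line, with 2 lower and 0 higher at an unadjusted p under 0.05. Among all named genes above the line, 17.4% were lower and 15.8% higher. The lipase list median was -0.16 (-0.00 without wild-type replicate 3, and likewise -0.00 under median scaling). Gpihbp1, which holds lipoprotein lipase on the capillary wall, read 9.08 and 9.95 in wild type and 7.89 and 8.31 in the knockout, 2.67-fold lower, and its second probe differed by -0.83 ± 0.42 (SE) with overlapping groups. Sel1l, needed for the lipase to leave the endoplasmic reticulum, differed by -0.78 ± 0.15, with its second probe under the line. The lipase gene Lpl read 9.34 and 9.16 against 10.62 and 9.45, high on knockout replicate 1, with its other probes under the line. The 10 adipocyte markers with a probe, 7 of them under the line, summed to 910 and 665 against 1226 and 886.

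Of 8 PPAR genes and targets above the line, 2 were lower and 1 higher at an unadjusted p under 0.05. The shares among all named genes above the line were 17.4% and 15.8%. The median of the 8 was -0.12 (0.10 under median scaling). Ppard, which encodes a fatty acid receptor that induces Angptl4, read 10.51 and 9.87 against 10.99 and 11.02, with its second probe under the line. Its fellow target Acaa2, a gene of fatty acid oxidation, differed by -0.71 ± 0.09 (SE) at the brightest of 3 probes and by -0.16 and 0.06 at the others. Of 14 hypoxia targets above the line, 11 had a lower and 3 a higher mean. At an unadjusted p under 0.05, 3 were lower and 2 higher, beside those same shares of 17.4% and 15.8%. The median of the hypoxia targets was -0.18, with 0.01 under median scaling, 0.00 without knockout replicate 1 and -0.41 without knockout replicate 2. The oxygen sensor genes differed in opposite directions: Egln3 differed by -0.73 ± 0.09 and Egln1 by 0.65 ± 0.18. Their other probes above the line differed less, by -0.44 ± 0.22 for Egln3. For Egln1 they differed by 0.46 ± 0.22 and by 0.25 ± 0.19, the last with overlapping groups. None of these passed after adjustment.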

How the data were processed

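Per the labels, 100 ng of total RNA from each tumour was amplified with 14 h of in vitro transcription and biotin labelled. The authors deposited probe intensity in a pair of tables: an unnormalized table, and a processed table whose columns hold one distribution, as quantile normalization of linear values gives. The labels name no image analysis software. Rows were paired through their 4 values, and all 46632 processed rows found a partner within 0.001 (log2). Symbols came from the platform annotation (29976 probes with 1 symbol, 10 with several, 16646 with none). The log2 of the processed intensity was fitted over all probes with limma 3.58.1 (R 4.3.3; Python 3.11.15 for tables), two-sided, with Benjamini-Hochberg adjustment and a threshold of 0.05, and was tested on simulated data. The fit has 2 residual degrees of freedom. A gene was represented by its brightest probe. Named genes were all members and, per list, up to 3 of smallest p with groups apart and at least 1.5-fold; others serve a count or comparison. Members and lists were chosen with earlier results of these data known. No slide or scan date was available, so no batch was tested. Other backgrounds, scalings, a filter at the 40th percentile, another prior and each left-out array were tried.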

Additional observations from a re-analysis of the deposited data

How the results depend on the processing

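The count of probes at a limma adjusted p under 0.05 was 0 in the processed values, where 5907 had an unadjusted p under 0.05 (3280 higher, 2627 lower). It was 0 after normexp with an offset of 50, both scalings and the filter, 76 after normexp with an offset of 16, 175 with a robust prior and intensity trend, and 0 to 3402 with 1 array left out (3402 without wild-type replicate 2, 2400 without wild-type replicate 3). The split at an unadjusted p under 0.05 was 4580 higher and 373 lower under median scaling and 2653 higher and 6077 lower under 75th percentile scaling, which shifted the median of all probes to -0.189 from -0.01. Without knockout replicate 1 the unadjusted count was 2921.

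The bright Angpt2 difference ran from -0.67 to -0.41 over the other backgrounds and scalings and from -0.77 to -0.53 with 1 array left out, with adjusted p from 0.0232 to 0.763 over all alternatives. With groups apart, leaving out an array cannot turn its sign, and the filter and prior leave the difference as it is. The bright Angptl4 probe was higher under median scaling (0.13) and ranged from -0.35 to -0.06 with 1 array left out. Probes under the background line turned direction under 75th percentile scaling (Tek -0.07, Tie1 -0.17, second Angpt2 probe -0.18, second Angpt1 probe -0.20) and with 1 array left out, where the main Angpt1 probe ran from -0.14 to 0.07, the second Angpt1 probe from -0.17 to 0.19, the second Angpt2 probe from -0.03 to 0.09 and the third Angptl4 probe from -0.12 to 0.05. Relative to the endothelial markers, Angpt1 turned from 0.18 to -0.12 and Tie1 from 0.25 to -0.05 under either scaling. Contrasts within an array must be equal under the pair of scalings. With 1 array left out, Angpt1 relative to those markers ran from -0.06 to 0.42. Angpt2 relative to those markers ran from -0.53 to -0.34 and relative to Angptl4 from -0.54 to -0.39. The cause was not tested. No paired analysis was run, because the labels link no wild-type mouse to a knockout mouse.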

Other observations

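Another angiopoietin-like gene, Angptl6, had both of its probes above the background line, and they went opposite ways. One read 6.59 and 6.91 in wild type and 8.04 and 7.45 in the knockout (1.00 ± 0.23, SE), and the brighter one 7.66 and 8.52 against 7.50 and 7.40 (-0.64 ± 0.29). Neither passed (limma adjusted p = 0.188 and 0.481). Angptl1 and Angptl7 stayed under the line.

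No member spanned 1 log2 unit over the 4 arrays, the limit set for naming genes of like pattern. For Angpt2, with a span of 0.81 and named after its values were seen, the nearest of 8499 genes by root mean square distance of centred array profiles were Slc35a2 (0.006), Abi3 (0.010) and Olfr1371 (0.013), the last an olfactory receptor gene, of the class used to set the background line. With 4 arrays, 119 genes lay within 0.1 of Angpt2.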
